A study of Mus musculus with 4 samples.

Results

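The ADAM, ADAMTS, ADAMTS-like and matrix metalloproteinase (MMP) genes, with the tissue inhibitors of metalloproteinases (TIMPs), neprilysin, the endothelin-converting enzymes and the BMP1/tolloid proteinases, were examined in accessible chromatin of mouse muscle stem cells. Members were taken by gene name, but the families were chosen with earlier results of these data known. The rule took every region whose deposited gene name is Adam, Adamts, Adamtsl or Mmp with a number, or Timp1 to Timp4, Mme, Mmel1, Ece1, Ece2, Bmp1, Tll1 or Tll2. The rule found 54 of 35019 regions, linked to 41 of 10674 named genes. Quiescent satellite cells, the resident stem cells of skeletal muscle, had been sorted by flow cytometry from mdx mice, whose genotype is given as muscular dystrophy and which lack functional dystrophin, and from wild type mice. The labels give no age, sex or strain background. The assay was ATAC-seq, in which the transposase Tn5 inserts sequencing adapters into open DNA, so that reads pile up where chromatin is accessible. There were 2 libraries per group, numbered 1 and 2 in the titles, and the question asked of each region was whether it differed between mdx and wild type cells.

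ADAM proteins are membrane-anchored proteases that release the extracellular parts of receptors, ligands and adhesion molecules, while ADAMTS proteins are secreted and cut procollagens and large proteoglycans of the matrix. MMPs degrade collagens, laminins and other matrix components, mostly after removal of an inhibitory propeptide, and TIMPs block them together with some ADAM and ADAMTS enzymes. In skeletal muscle these enzymes are known for remodelling the basal lamina under which satellite cells lie and for shedding Notch ligands and receptors.

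A few stretches before the gene starts are shown first, from starts under an accessible region and from starts under none. They are the bases up to 250 before a RefSeq start (GRCm38.p6), read 5′ to 3′ on the gene's strand, with the letters of certain motifs in capitals. The motifs searched on either strand were the AP-1 site TGANTCA, the TATA box TATAAA, the GC box GGGCGG, the CCAAT box CCAAT, the E-box CANNTG, the MCAT site of TEAD factors GGAATG and the RUNX site TGTGGT. A match is a description of letters, not a binding site.

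The first set comes from Mme, the only member that passed the test, from short stretches inside its accessible region. The capitals mark a GC box in the first, at chr3:63295654-63295683, and an AP-1 site in the second, at chr3:63295868-63295897, both on the plus strand.
Mme, before the second RefSeq start: ccgggcgctcacCCGCCCggagcccgagtg
Mme, before the third RefSeq start: caatcccactggTGAGTCAccggagagcga

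The second set shows 2 starts of Adam19, a gene with accessible regions at its linked start and at an internal start. The window before the linked start (chr11:46055734-46055983, plus strand) has an AP-1 site, an E-box that overlaps it and an MCAT site in capitals. The window before the internal start (chr11:46127654-46127903, plus strand) has 5 E-boxes in capitals, the first of which overlaps a RUNX site.
Adam19, linked start: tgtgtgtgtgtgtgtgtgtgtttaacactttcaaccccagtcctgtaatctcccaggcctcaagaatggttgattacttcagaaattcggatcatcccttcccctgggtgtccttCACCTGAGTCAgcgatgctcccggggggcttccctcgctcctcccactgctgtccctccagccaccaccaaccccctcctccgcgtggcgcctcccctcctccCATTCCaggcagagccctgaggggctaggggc
Adam19, internal start: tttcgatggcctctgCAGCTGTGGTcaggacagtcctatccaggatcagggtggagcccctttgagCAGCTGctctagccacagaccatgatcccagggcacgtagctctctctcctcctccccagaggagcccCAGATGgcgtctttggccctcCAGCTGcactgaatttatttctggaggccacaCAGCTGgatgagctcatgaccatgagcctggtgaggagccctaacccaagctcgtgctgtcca

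The third set shows strongly accessible starts that are rich in G and C. The Adamts1 window (chr16:85803114-85803363, minus strand) has 3 GC boxes and a TATA box in capitals, and the Adam10 window (chr9:70678732-70678981, plus strand) has 3 GC boxes, 2 of which share letters, and 2 CCAAT boxes.
Adamts1: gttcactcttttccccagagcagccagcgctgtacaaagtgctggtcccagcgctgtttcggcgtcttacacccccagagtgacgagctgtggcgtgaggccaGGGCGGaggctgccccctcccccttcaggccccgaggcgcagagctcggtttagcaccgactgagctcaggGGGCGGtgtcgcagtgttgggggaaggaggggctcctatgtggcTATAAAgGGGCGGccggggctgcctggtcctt
Adam10: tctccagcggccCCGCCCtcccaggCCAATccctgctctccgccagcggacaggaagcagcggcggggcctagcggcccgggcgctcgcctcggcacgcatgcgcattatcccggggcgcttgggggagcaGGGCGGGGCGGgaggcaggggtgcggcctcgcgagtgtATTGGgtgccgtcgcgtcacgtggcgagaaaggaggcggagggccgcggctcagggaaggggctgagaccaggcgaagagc

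The fourth set shows MMP genes of the chromosome 9 cluster that lie under no region of the table. AP-1 sites and TATA boxes are in capitals in the windows of Mmp3 (chr9:7445572-7445821), Mmp13 (chr9:7272264-7272513) and Mmp10 (chr9:7502092-7502341), all on the plus strand. The AP-1 site of Mmp10 also overlaps an E-box.
Mmp3: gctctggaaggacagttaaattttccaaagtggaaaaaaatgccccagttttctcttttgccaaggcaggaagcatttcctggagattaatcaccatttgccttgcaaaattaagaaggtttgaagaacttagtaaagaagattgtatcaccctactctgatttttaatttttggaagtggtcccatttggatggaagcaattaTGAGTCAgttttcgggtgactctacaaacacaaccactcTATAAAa
Mmp13: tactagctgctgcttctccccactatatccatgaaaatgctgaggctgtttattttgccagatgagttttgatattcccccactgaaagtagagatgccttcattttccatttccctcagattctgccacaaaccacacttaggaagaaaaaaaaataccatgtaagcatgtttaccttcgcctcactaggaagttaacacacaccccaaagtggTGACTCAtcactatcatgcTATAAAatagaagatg
Mmp10: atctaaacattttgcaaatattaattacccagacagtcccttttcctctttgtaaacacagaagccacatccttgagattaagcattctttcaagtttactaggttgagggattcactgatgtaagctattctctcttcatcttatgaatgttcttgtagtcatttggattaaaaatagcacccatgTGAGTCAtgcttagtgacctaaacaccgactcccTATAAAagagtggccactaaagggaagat

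RefSeq lists 92 genes with names of these families, and 51 of them have no linked region among the rows analysed here. Those without one are mostly ADAM genes, 26 of 34, and MMP genes, 17 of 23. By contrast 14 of 19 ADAMTS genes and 5 of 5 ADAMTS-like genes have at least 1 linked region. Genes with no linked region include Adam8, a protease of leukocytes and activated cells, the aggrecan-cleaving Adamts4, the gelatinase Mmp9, the collagenases Mmp8 and Mmp13, the stromelysins Mmp3 and Mmp10, the macrophage elastase Mmp12, and Timp4. Of the 51 genes, 44 have no region anywhere between their RefSeq start and end.

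Start windows were in hand for 60 genes of the families, 28 of the 41 members among them. The 27 windows that lie under a region of their own gene, from 25 genes, had a median of 66.8% G and C bases and a CpG observed-to-expected ratio of 0.71. The 41 windows under no region, from 37 genes, had medians of 45.6% and 0.15, and all 32851 mouse windows of the same length had medians of 52.4% and 0.37. Leaving out the MMP windows of chromosome 9, the other 29 windows under no region had 52.8% and 0.18. Of the 41, 6 belong to 5 genes that do have a linked region. For Adam19, Ece1 and Mme they are further starts, and for Mmp14 and Tll1 they are the only windows in hand. GC boxes were found in 22 of the 27 windows under a region and in 9 of the 41 under none, against 32.7% of all windows. The 12 windows of the 10 MMP genes on chromosome 9 had a median of 40.2% G and C and no GC box, an AP-1 site in 8 and a TATA box in 7. For all windows these shares were 6.7% for the AP-1 site and 12.4% for the TATA box. In the windows under a region, 2 of 27 had an AP-1 site, those of Adam19 and Mme, and 2 of 27 a TATA box. E-boxes were found in 16 of these 27 windows against 66.2% of all windows, CCAAT boxes in 10 against 33.8%, MCAT sites in 3 against 12.6% and RUNX sites in 1 against 14.0%. Windows of the same gene overlap in part, so they are not independent of one another.

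**Figure D1:**
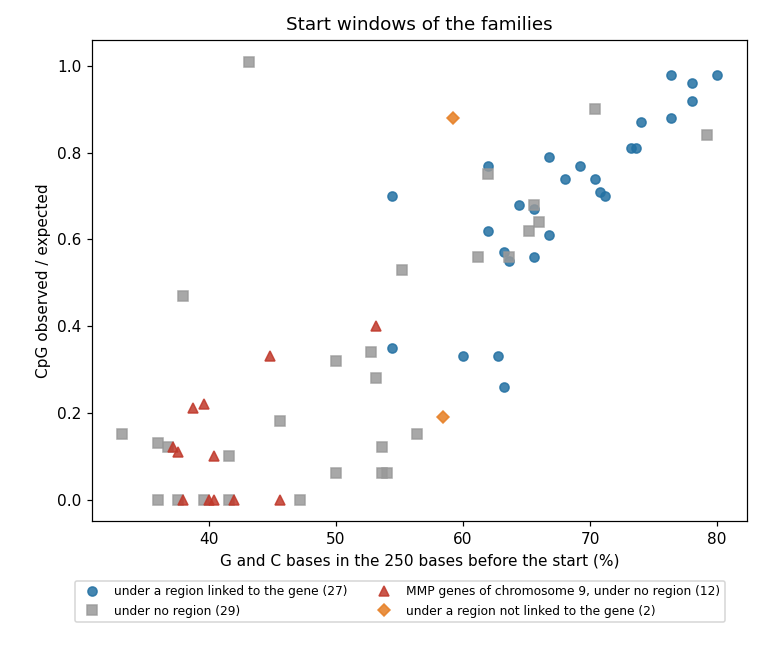
Each point is a 250-base window before a RefSeq start of a gene of the families, with its percentage of G and C bases on the horizontal axis and its CpG observed-to-expected ratio on the vertical axis. The 27 windows under a linked region lie at 54.4% G and C or above, and the 12 windows of MMP genes on chromosome 9 lie between 37.2% and 53.2%.

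The deposited values are reads per region multiplied by 1 factor per library and rounded, here called scaled reads. The listed regions together held from 3208471 reads (mdx replicate 1) to 8165206 reads (wild type replicate 2), with 3607633 in mdx replicate 2 and 3693092 in wild type replicate 1. Reads here and below were recovered from the scaled values. Those of wild type replicate 2 are estimates, since different read numbers round to the same value there. Promoter regions, those within 1 kb of the linked start, held a smaller share of the nuclear reads in mdx (52.75% and 57.21%) than in wild type (64.15% and 61.09%). Over all tested promoter regions the median log2 fold change, mdx minus wild type, was -0.25, while over the other regions, called distal, it was 0.19. Values below are set beside these medians. The labels do not tie a library to an animal, and the p-values therefore reflect only library-to-library spread, possibly technical. Libraries of sorted cells cannot tell fewer cells with an open region from less open chromatin in every cell.

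All 54 member regions passed the filter of at least 10 scaled reads in at least 2 libraries, 2 of them (Adamtsl5 and Mmp14) only through the wild type libraries. In the limma test on log2(scaled reads + 1), with p-values adjusted over all 33161 tested regions and a threshold of 0.05, 1 member region was higher in mdx, that of Mme, and 0 were lower. Over all tested regions 3.3% were called higher and 0.881% lower, and 1 of 54 member regions is no more than that background. At an unadjusted p under 0.05 there were 11 member regions, or 20.4%, against 23% of all tested regions. The count of 0 lower members became 8 with scaling to equal distal medians and 2 with a filter of a mean of at least 50. The mdx libraries both lay above both wild type libraries in 15 member regions (26.8% of all tested regions did) and both below in 13 (25.9%), and the groups overlapped in 26.

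Of the members, 43 regions are at promoters, of 40 genes, and 1 of these was higher and 0 lower, against 0.691% and 1.73% of all tested promoter regions. Mdx lay wholly above wild type in 12 of these 43, against 10.4% of all tested promoter regions, and wholly below in 11, against 43.5%. Fold changes were below 0 in 25 of the 43, against 74.6% of tested promoter regions, and their median was -0.04 against -0.25. That median was -0.37 with distal medians equal, where 6 promoters were called lower, 0.16 with promoter medians equal and 0.01 with scaling by totals. This difference between the members and all promoters is a description of counts and was not tested. In the 11 distal member regions 3 lay wholly above and 2 wholly below, against 35.3% and 16.8% of tested distal regions.

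**Figure D2:**
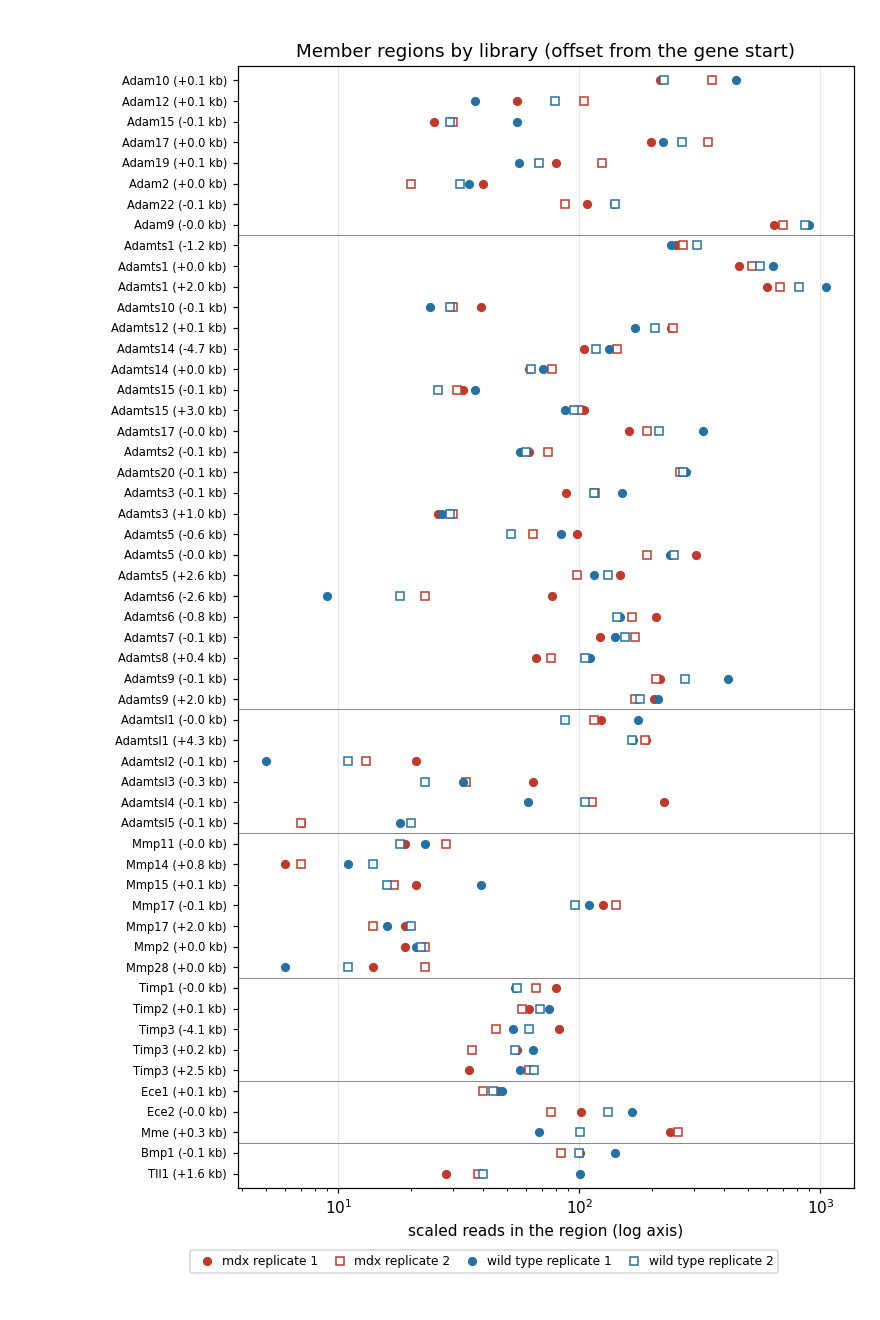
Scaled reads on a log axis in each of the 4 libraries for all 54 member regions, named by gene and by distance from the gene start and grouped by family. At Mme both mdx libraries, at 238 and 257, lie well above the wild type libraries at 68 and 101, while in 26 regions the groups overlap.

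Mme encodes neprilysin, a membrane metallopeptidase that degrades signalling peptides such as enkephalins. Its promoter region at chr3:63295445-63296192 held 238 and 257 scaled reads in mdx, against 68 and 101 in wild type. The mdx libraries were close to each other and both far above the wild type libraries. The means were 247.5 ± 13.4 in mdx and 84.5 ± 23.3 in wild type (SD, n = 2 libraries each), from 172 and 221 reads in mdx, against 56 and 205 in wild type. The log2 fold change was 1.57 with a 95% interval from 1.01 to 2.12 and an adjusted p of 0.0102 in limma. The region covers 2 of the 3 RefSeq starts of Mme, the windows of which contain 73.2% and 73.6% G and C, and the sequences printed above for Mme both come from inside it. The window before the other start, 45.6% G and C, lies outside it. Without an intensity trend in limma's prior variance the adjusted p was 0.131. With any 1 library left out the log2 fold change lay between 1.28 and 1.85.

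The accessibility of the Mme promoter is of middle rank: 48.6% of the 10139 tested promoters of named genes had fewer scaled reads per kb over the 4 libraries. The 5 regions with the nearest pattern over the 4 libraries, by distance between log2 values centred on each region, were a region linked to Olfr527 and 4 with no gene name.

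The endothelin-converting enzymes, relatives of neprilysin, did not pass. The Ece1 promoter region held 46 and 40 scaled reads in mdx, against 48 and 44 in wild type, with the groups overlapping (log2 fold change -0.10, adjusted p 0.900 in limma). The region linked to Ece2 held 102 and 76 in mdx and 165 and 131 in wild type, with mdx wholly below (-0.73, 95% interval -1.32 to -0.15, adjusted p 0.133 in limma). That region covers the RefSeq start of Eef1akmt4, a neighbouring gene with read-through transcripts into Ece2, and no RefSeq start of Ece2 alone. The region at the start of Ece2 alone, 18.34 kb from the deposited one, held 0 and 5 in mdx and 5 and 13 in wild type and was not tested.

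The ADAM genes with a linked region were Adam2, Adam9, Adam10, Adam12, Adam15, Adam17, Adam19 and Adam22, 1 promoter region each. None of the 8 passed, at a median log2 fold change of -0.21, close to the -0.25 of all tested promoter regions. The median of the 8 stayed below 0 under the 4 other scalings tried. Mdx lay wholly above wild type in 1 (10.4% of tested promoters), wholly below in 2 (43.5%), and overlapped it in 5. With distal medians equal 2 were called lower, Adam9 and Adam22.

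Adam10 and Adam17 are the main sheddases, with Notch receptors and tumour necrosis factor among their substrates. Adam10 held 217 and 354 scaled reads in mdx, against 446 and 225 in wild type, so that the higher library of each group was well above the lower one of the other (-0.19, 95% interval -0.85 to 0.47). Adam17 held 199 and 343 in mdx and 222 and 267 in wild type, again with overlap (0.10, -0.45 to 0.65). Neither differed beyond the spread between libraries, and both intervals include differences of at least 0.45 in size. Adam9, another sheddase, was the most accessible ADAM promoter, with 645 and 698 in mdx and 895 and 865 in wild type. Its groups were tight and did not overlap, and its log2 fold change of -0.39 (-0.71 to -0.07) had an adjusted p of 0.137 in limma. Per kb, 95.5% of named promoters had fewer reads than Adam9, against 74.5% for Adam10 and 71% for Adam17.

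Adam12 and Adam19, the meltrins, are known from myoblasts, where Adam12 was described in cell fusion. Adam12 held 55 and 105 in mdx and 37 and 79 in wild type, with overlapping groups (0.48, adjusted p 0.523 in limma). Adam19, a processor of neuregulins, held 80 and 124 in mdx and 56 and 68 in wild type, with mdx wholly above (0.68, 95% interval 0.00 to 1.36, adjusted p 0.216 in limma). Adam15 held 25 and 30 in mdx and 55 and 29 in wild type, where wild type replicate 1 stood apart from the other 3 libraries (-0.53, adjusted p 0.499). Adam22, a receptor without protease activity best known from neurons, held 108 and 87 in mdx and 139 and 141 in wild type (-0.53, adjusted p 0.239), and mdx lay wholly below. The promoter of Adam2, a sperm protein, held 20 to 40 scaled reads in the 4 libraries, with overlap.

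**Figure D3:**
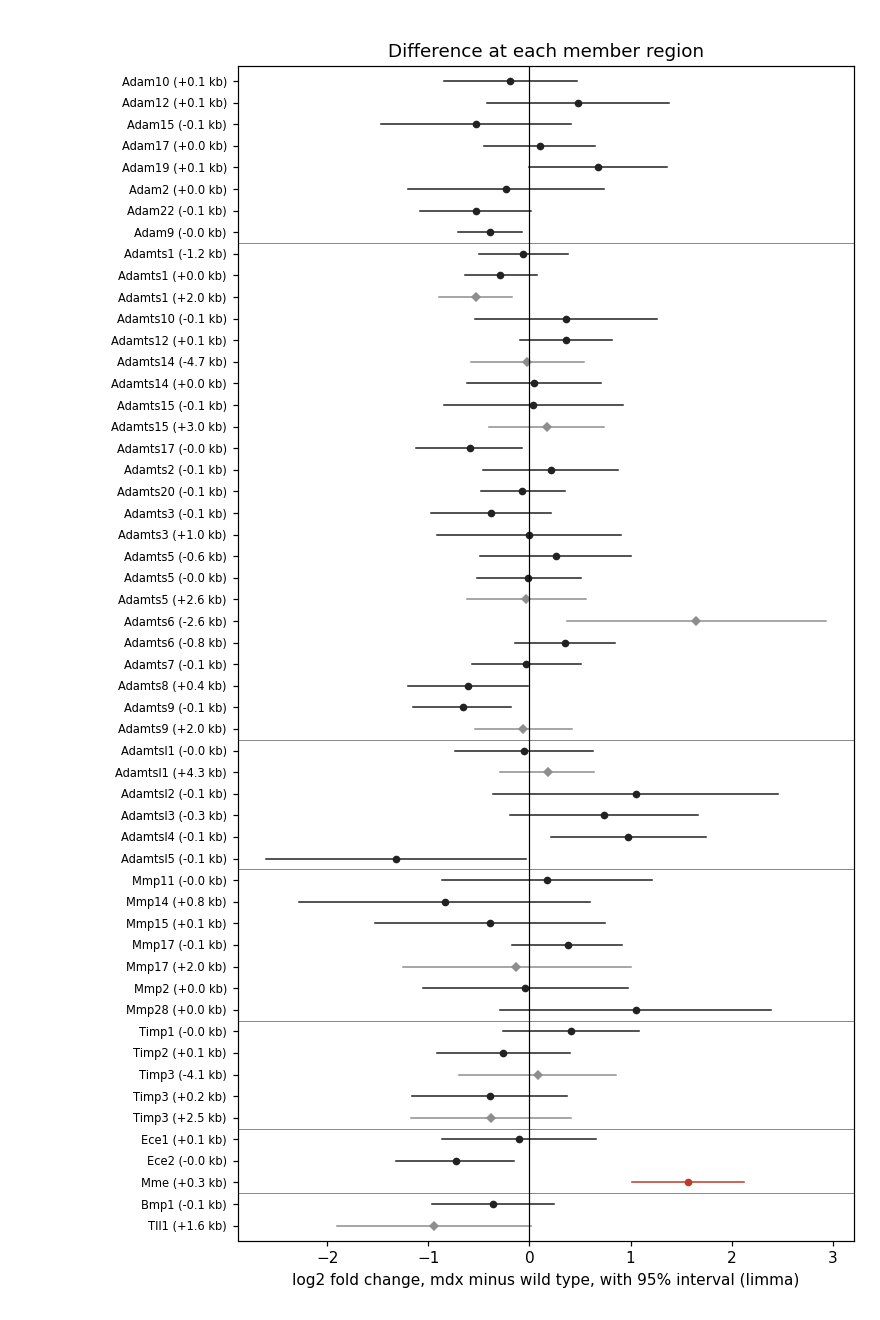
Log2 fold change, mdx minus wild type, with its 95% interval from limma for the 54 member regions, in black for promoters, grey for distal regions and red for the region that passed. The interval of Mme, 1.01 to 2.12, lies clear of 0, and the interval of Adamtsl5, -2.61 to -0.03, is among the widest.

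The ADAMTS family had 23 regions of 14 genes, of which 0 passed in either direction, at a median log2 fold change of -0.02. With distal medians equal 4 were called lower and the median was -0.36, and it was 0.03 with scaling by totals and 0.18 with promoter medians equal. Mdx lay wholly above in 6 regions and wholly below in 6, where 26.8% and 25.9% of all tested regions did. Most regions of the family are at promoters, where the shares were 10.4% and 43.5%.

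Among the proteoglycan-cleaving members, Adamts1 was the most accessible member of all, with 3 linked regions. At its start (chr16:85802857-85803342) it held 460 and 522 scaled reads in mdx, against 636 and 563 in wild type, with mdx below wild type (-0.29, adjusted p 0.322 in limma). At 2.0 kb into the gene (chr16:85800726-85801569) it held 603 and 681 in mdx and 1051 and 813 in wild type, with mdx again wholly below. That region had a log2 fold change of -0.53 (95% interval -0.89 to -0.17) and the adjusted p nearest to the threshold among members that did not pass, 0.0862 in limma. The region before the start held 253 and 270 against 241 and 309, and the groups overlapped (-0.06). Per kb, 98.6% of named promoters were less accessible than the Adamts1 start.

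Adamts5, the aggrecanase that lies beside Adamts1 on chromosome 16, had 3 regions with overlapping groups. Its start region held 304 and 191 in mdx and 237 and 247 in wild type (-0.01, 95% interval -0.52 to 0.51), so the 2 mdx libraries bracketed the wild type ones. The regions at 0.6 kb before and 2.6 kb after the start had log2 fold changes of 0.26 and -0.03. The start of Adamts9, a versican-cleaving relative, held 217 and 208 in mdx and 413 and 275 in wild type, the largest negative difference in the family (-0.66, -1.15 to -0.18, adjusted p 0.105 in limma). Its second region, 2.0 kb into the gene, held 205 and 171 against 213 and 179 and overlapped (-0.06). Adamts20, its nearest relative, held 261 and 261 against 277 and 270, 4 nearly equal values (-0.07). Adamts8 held 66 and 76 in mdx and 111 and 106 in wild type, with mdx below (-0.61, adjusted p 0.207), while the start of Adamts15 held 33 and 31 against 37 and 26 (0.04).

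The procollagen N-proteinases are Adamts2, Adamts3 and Adamts14. At its start Adamts2 held 62 and 74 in mdx and 57 and 60 in wild type, with mdx only just above (0.21, -0.46 to 0.88, adjusted p 0.729 in limma). The start of Adamts3 held 88 and 116 against 151 and 115, with overlap (-0.38), and that of Adamts14 held 62 and 77 against 71 and 63 (0.05). None of these starts differed beyond the spread between libraries.

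Adamts6, Adamts10 and Adamts17 are known for a part in fibrillin microfibrils. The largest fold change in the family was at a weak region 2.6 kb before the Adamts6 start (chr13:104285122-104285352), with 77 and 23 in mdx and 9 and 18 in wild type. There mdx lay above wild type, but mdx replicate 1 stood far above the other 3 libraries, and the log2 fold change of 1.65 (0.37 to 2.93) had an adjusted p of 0.125 in limma. The Adamts6 region nearest the start held 209 and 166 against 147 and 144 (0.35). Adamts17 held 160 and 191 in mdx and 326 and 214 in wild type, with mdx below (-0.59, adjusted p 0.169); its region also covers the start of Gm33627. Adamts10 held 39 and 30 against 24 and 29 (0.36). Adamts7 and Adamts12, which cleave cartilage oligomeric matrix protein, had log2 fold changes of -0.03 and 0.36.

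ADAMTS-like proteins share the ancillary domains of ADAMTS enzymes but have no protease domain, and several bind microfibrils. In their 6 regions of 5 genes the median log2 fold change was 0.46, above 0 under each of the 4 other scalings (0.12 to 0.66), with 0 passing. Mdx lay wholly above wild type in 4 of the 6 (26.8% of all tested regions, 10.4% of promoters) and wholly below in 1 (25.9% and 43.5%). Adamtsl4 held 225 and 113 in mdx and 61 and 106 in wild type, with a wide spread within both groups (0.98, 0.21 to 1.75, adjusted p 0.128 in limma). Adamtsl3 held 64 and 34 against 33 and 23 (0.74, adjusted p 0.329), and the shallow Adamtsl2 region held 21 and 13 against 5 and 11 (1.05). Adamtsl5 went the other way, with 7 and 7 in mdx and 18 and 20 in wild type (-1.32, adjusted p 0.206). It was also among the least accessible promoters, with only 1.39% of named promoters lower per kb, and its mdx values rest on 5 and 6 reads. The regions of Adamtsl1, the most accessible of the family, held 123 and 115 against 175 and 87 at the start (-0.05) and 189 and 188 against 167 and 166 at 4.3 kb into the gene (0.18).

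MMP genes were few and weak: 7 regions of 6 genes, with mean levels from 78.5 to 235.6 scaled reads per kb, where ADAMTS regions ran from 120.2 to 1124.2. None passed, and the median log2 fold change was -0.04 (-0.37 with distal medians equal, 0.01 with scaling by totals, 0.16 with promoter medians equal). The groups overlapped in 4 of the 7, against 15688 of all 33161 tested regions. Mmp2, gelatinase A, held 19 and 23 in mdx and 21 and 22 in wild type, 4 nearly equal and low values (-0.04, 95% interval -1.05 to 0.98). Mmp14, the membrane-bound activator of Mmp2, held 6 and 7 in mdx and 11 and 14 in wild type, with mdx below (-0.84, -2.28 to 0.60, adjusted p 0.481 in limma). The Mmp14 values rest on 4 and 6 reads in mdx, and the wide intervals of both genes mean that only large differences were detectable. Mmp28, epilysin, held 14 and 23 against 6 and 11, with mdx above (1.05, adjusted p 0.336). Mmp11, stromelysin 3, held 19 and 28 against 23 and 18 (0.17), and Mmp15 held 21 and 17 against 39 and 16 (-0.39). The highest level per kb was at the start of Mmp17, a membrane-anchored MMP, with 126 and 142 in mdx and 110 and 96 in wild type (0.38, adjusted p 0.398). Mdx lay wholly above there by a small margin.

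The TIMPs had 5 regions of 3 genes, at promoters and distal, with 0 passing. Their median log2 fold change was -0.26, below 0 under each of the other scalings. The medians of all tested promoter and distal regions were -0.25 and 0.19. Timp1, on chromosome X, held 80 and 66 in mdx and 54 and 55 in wild type, with mdx above (0.41, -0.26 to 1.08, adjusted p 0.464 in limma). Timp2, which takes part in the activation of Mmp2 by Mmp14, held 62 and 58 against 75 and 69, with mdx below (-0.26, adjusted p 0.648). Timp3, a matrix-bound inhibitor that also acts on Adam17, held 55 and 36 at its start in mdx and 64 and 54 in wild type, with overlap (-0.39). Its regions upstream (offset -4.1 kb) and downstream (2.5 kb) held 82 and 45 against 53 and 62 and 35 and 62 against 57 and 65, both with overlap. The differences of Timp1 and Timp2 had opposite signs, and neither passed.

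Bmp1, the procollagen C-proteinase, held 101 and 84 in mdx and 140 and 100 in wild type, with overlap (-0.36, adjusted p 0.475 in limma). Tll1, tolloid-like 1, held 28 and 38 against 101 and 40 at 1.6 kb into the gene, where wild type replicate 1 stood far above the other 3 libraries (-0.94, -1.90 to 0.02, adjusted p 0.226).

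Many regions inside these genes carry no gene name or the name of another gene, so the name rule does not take them. By RefSeq positions there were 116 such regions within the genes of the families, a set drawn up after values had been seen. Of the 113 that passed the filter, 3 did so only through the mdx libraries and 1 only through wild type. In limma 8 were higher in mdx and 0 lower, where 4.65% of all tested distal regions were higher and 0.444% lower. The 3 that passed the filter only through mdx are all among these 8, and high mdx values were a condition of their being tested. Mdx lay wholly above wild type in 54 of the 113, against 35.3% of tested distal regions, and wholly below in 10, against 16.8%. The median log2 fold change was 0.53, between 0.20 and 0.73 under the other scalings, against 0.19 over all tested distal regions. The set was compared with the distal regions by these counts only, which were not tested. The number called was 14 with scaling by totals, 17 with promoter medians equal, 17 with the replicate block, 13 with cyclic loess, voom or a pseudocount of 5, 3 without a filter, and 0 without an intensity trend. With distal medians equal 8 were called higher and 2 lower.

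**Figure D4:**
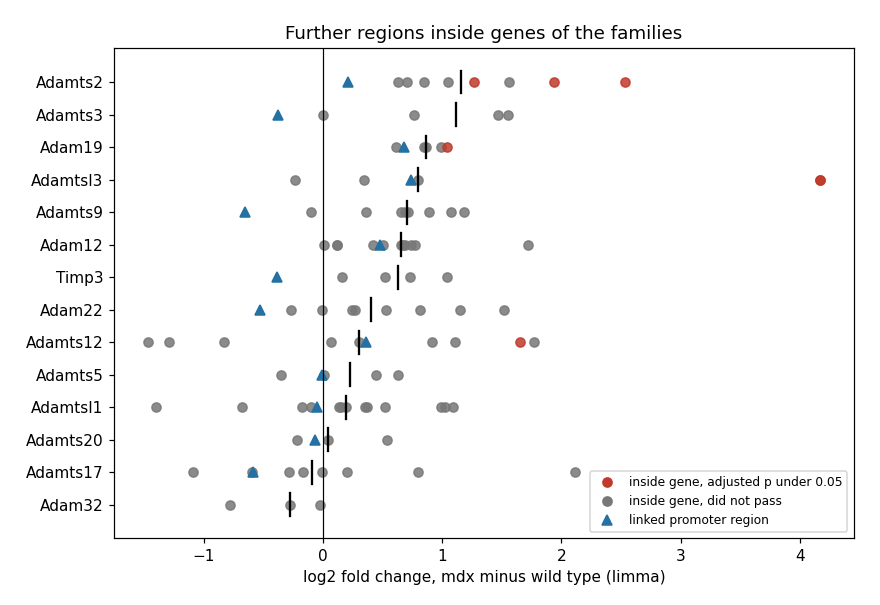
Log2 fold change from limma for further regions inside each gene that holds at least 3 of them (circles, red where the adjusted p was under 0.05; black bars are medians) and for the linked promoter nearest the start (triangles). The medians of Adamts2 and Adamts3, 1.16 and 1.12, are the highest, and the promoter triangles of Adamts3, Adamts9, Timp3 and Adam22 lie left of the medians inside these genes.

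Adamts2 held 8 further regions, and mdx lay wholly above wild type in all 8, against 35.3% of tested distal regions. Their median log2 fold change was 1.16 (0.81 to 1.47 with 1 library left out). That median was the highest among the genes holding at least 3 such regions, in a set drawn up after values had been seen. Of the 8 regions 3 passed, where 4.65% of all tested distal regions were higher in mdx. Whether Adamts2 departs from this background was not tested. The region 30.39 kb into the gene (chr11:50632381-50632576) held 41 and 42 scaled reads in mdx, against 5 and 8 in wild type (2.53 ± 0.53 SE, adjusted p 0.0238 in limma). It too passed the filter only through the mdx libraries. The region at 20.33 kb held 57 and 63 against 10 and 22 (1.94 ± 0.46, adjusted p 0.0374), and that at 67.63 kb held 123 and 106 against 44 and 50 (1.27 ± 0.29, adjusted p 0.0358). In all 3 both mdx libraries lay above both wild type libraries, and at 20.33 kb the wild type libraries themselves lay well apart. The promoter of the same gene, at 62 and 74 against 57 and 60, differed far less, although the difference between promoter and inner regions was not tested. Without the filter on low values these 3 calls were lost, at adjusted p-values of 0.0509, 0.0733 and 0.0621, and with equal distal medians the last of them was lost (0.93, adjusted p 0.0514).

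Adamtsl3 held 2 regions with at most 2 scaled reads in each wild type library. Both passed the filter on low values only through the mdx libraries, so a difference in this direction was a condition of their being tested. The region 69.98 kb into the gene (chr7:82405572-82405856) held 53 and 35 scaled reads in mdx, against 1 and 2 in wild type, from 38 and 30 reads against 1 and 4. The ratio of reads pooled within each group, corrected for the summed library scales, was 24.5. It gives more weight to the deeper wild type replicate 2. Its counting interval of 9.99 to 77.8 covers counting error only. The fold in limma was 18.0, with an adjusted p of 0.00941. The region 233.7 kb into the gene (chr7:82569346-82569515) held 43 and 21 in mdx and 0 and 2 in wild type. Its ratio of pooled reads was 22 (8.08 to 84.1) and its fold in limma 17.96. The adjusted p was 0.0224 in limma, and 0.0746 with a pseudocount of 0.1. The other 3 regions inside the gene did not pass, with log2 fold changes of 0.80, -0.24 and 0.34.

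**Figure D5:**
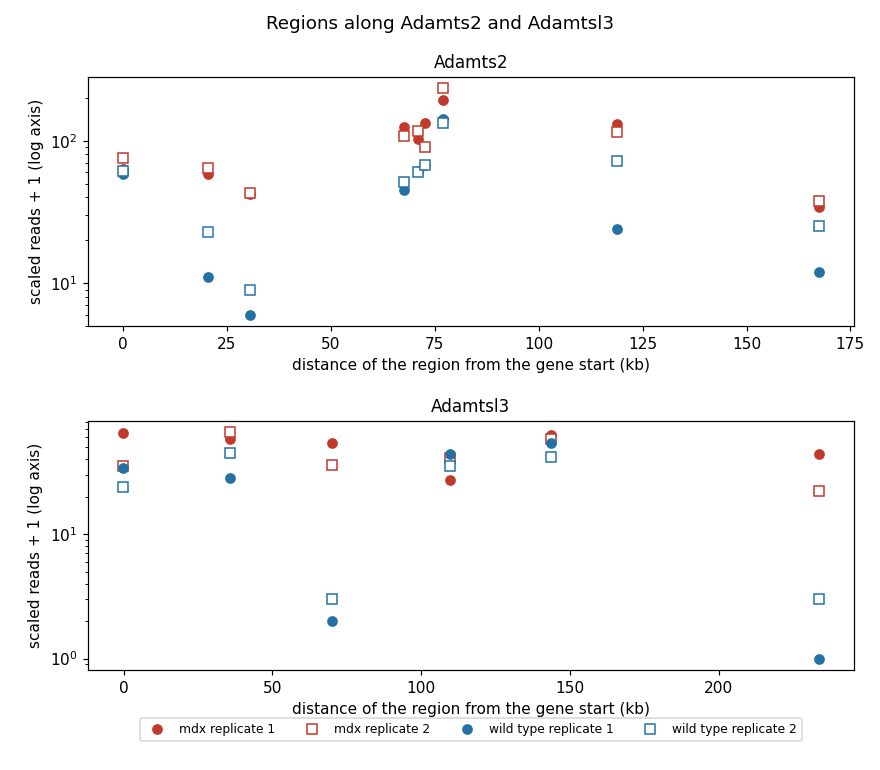
Scaled reads + 1 on a log axis in the 4 libraries for the linked promoter region (at about 0) and the further regions along Adamts2 (top) and Adamtsl3 (bottom), by distance in kb from the gene start. At all 8 inner regions of Adamts2 both mdx libraries lie above both wild type libraries, and at 69.98 and 233.7 kb in Adamtsl3 the wild type libraries hold 0 to 2 scaled reads.

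Adam19 held 5 further regions, with a median of 0.86, and mdx lay wholly above in 4, against 35.3% of tested distal regions. The region at 71.78 kb (chr11:46127586-46127957), over the internal RefSeq start whose window is printed above with its 5 E-boxes, held 199 and 171 in mdx and 92 and 87 in wild type (1.04 ± 0.24 SE, adjusted p 0.0363 in limma). A stronger region at 17.04 kb did not pass (0.85, adjusted p 0.0651). The call at 71.78 kb was lost without the filter (adjusted p 0.0614) and with equal distal medians (0.70, adjusted p 0.0874). Adam12 held 11 further regions, of which 0 passed. Its fold changes ran from 0.01 to 1.72 at a median of 0.65, with 3 below 0 with distal medians equal, 2 with cyclic loess and 1 with voom. That median ran from 0.17 to 0.98 with 1 library left out.

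In Adamts12, 1 of 9 regions passed, at 109.4 kb (chr15:11174102-11174279), with 70 and 53 in mdx and 16 and 22 in wild type (1.65 ± 0.40 SE, adjusted p 0.0412 in limma, 0.0749 without the filter). Of its 9 regions, mdx lay wholly above wild type in 4 and wholly below in 2, against 35.3% and 16.8% of tested distal regions. In Adamts3, 0 of 4 passed, at a median of 1.12, and in Timp3 0 of 4, at 0.62. Towards the 3′ end of Mmp2, a region that the authors linked to Lpcat2 (chr8:92850102-92850684), 23.1 kb from the Mmp2 start, held 482 and 453 in mdx and 186 and 264 in wild type. Both mdx libraries were far above wild type there (1.07 ± 0.21 SE, adjusted p 0.0184 in limma). Which gene such a region acts on was not measured. Without an intensity trend none of the 8 calls was kept.

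Genes around the proteases were read from 6 lists, in which called counts stand beside the 3.3% higher and 0.881% lower of all tested regions. The lists are small and were chosen with earlier results of these data known. Their counts of 0 or 1 are not read as results about the lists. Of 8 regions of activating proteases such as furin and the other proprotein convertases, 0 passed, at a median of -0.29, and the one nearest to passing was Htra1 (106 and 138 in mdx, 175 and 151 in wild type, -0.42, adjusted p 0.331 in limma). Of 13 regions of ADAM regulators (tetraspanins, inactive rhomboids and gamma-secretase subunits) 0 passed, at a median of -0.30, with Aph1a nearest (46 and 80 against 112 and 102, -0.81, adjusted p 0.161). Both lists had medians below 0 under each scaling, near the -0.25 of all promoters.

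Of 8 regions of protease receptors and inhibitors other than TIMPs, 1 was lower in mdx and 0 higher. It was the promoter of Pcolce2, an enhancer of procollagen C-proteinase activity, with 100 and 110 in mdx and 215 and 189 in wild type (-0.94 ± 0.23 SE, adjusted p 0.0440 in limma). The groups were well apart, but the call was lost with promoter medians equal (adjusted p 0.0780), without the filter (0.0697) and with a pseudocount of 0.1 (0.0548). Reck, a membrane-anchored inhibitor of MMPs, had a similar pattern, with 88 and 89 against 170 and 145 (-0.82), and did not pass, at an adjusted p of 0.0801. The median of this list, -0.60, was the lowest of the 6.

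Of 23 regions of receptors, ligands and adhesion molecules that ADAM proteases shed, 1 was higher and 1 lower, at a median of -0.17 (0.03 with promoter medians equal). The promoter of Cdh2, N-cadherin, held 647 and 636 in mdx and 363 and 398 in wild type (0.75 ± 0.16 SE, adjusted p 0.0266 in limma). With distal medians equal that call was lost (0.42, adjusted p 0.202), and without the filter the adjusted p was 0.0523. That of Met, the receptor of hepatocyte growth factor, held 265 and 352 against 627 and 542 (-0.93 ± 0.19 SE, adjusted p 0.0231, and 0.0519 without the filter). In each the groups did not overlap.

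The 29 regions of matrix substrates had a median of 0.02 (-0.32 with distal medians equal, -0.09 with cyclic loess), and 1 was higher, 2.0 kb into Col1a2, a chain of type I collagen, with 166 and 131 in mdx and 29 and 55 in wild type (1.86 ± 0.34 SE, adjusted p 0.0157 in limma). The Col1a2 promoter itself held 137 and 123 against 72 and 69 and did not pass (0.87, adjusted p 0.0801), nor did a region near Postn, periostin (1.17, adjusted p 0.0524). The list of other metalloproteases, which also holds Bsg, not itself a protease, had 5 regions at a median of 0.45. Of these 1 was higher, 3.2 kb into Pappa, which cleaves binding proteins of insulin-like growth factors. It held 120 and 95 in mdx and 45 and 26 in wild type (1.61 ± 0.35 SE, adjusted p 0.0280 in limma, 0.0609 without the filter). Mdx was far above wild type at both Col1a2 and Pappa.

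Several of these genes are also known from connective-tissue cells, so markers of other cells were read in the same libraries. Satellite cell markers had regions for 10 of 10 genes, Pax7 and Myf5 among them, and summed to 2243 and 2063 in mdx and 2282 and 2202 in wild type, with 0 of 14 regions passing. The list for fibro-adipogenic progenitors, mesenchymal cells of muscle that give rise to fibroblasts and fat, had regions for 7 of 9 genes (none for Lum and Ly6a) and summed to 715 and 709 in mdx and 512 and 548 in wild type, at a median log2 fold change of 0.02. Without the 2 Col1a2 regions the sums were 412 and 455 against 411 and 424. Those sums leave out the region called higher but keep the Thy1 region, which was called lower, so they are one-sided. In that list 1 region was higher, that of Col1a2 above, and 1 was lower, at Thy1, with 3 and 9 against 51 and 29 (-2.64, adjusted p 0.0365 in limma). The regions of Pdgfra, their defining receptor, did not pass. Nor did the Osr1 promoter, with 88 and 100 against 37 and 46 (1.17, adjusted p 0.057 in limma). Of the 11 regions of the list, mdx lay wholly above wild type in 5 (26.8% of all tested regions) and wholly below in 3 (25.9%). In the other 3 the groups overlapped. The part of such cells in the results for Mme, Adamts2, Adamtsl3 and Col1a2 was not tested. Muscle fibre markers had a region for 1 of 5 genes, Myh1, with sums of 130 and 131 against 64 and 86, and pericyte and smooth muscle markers for 4 of 5, with 370 and 295 against 242 and 308. Of 6 macrophage and leukocyte markers only Csf1r had a region, at 19 and 21 against 9 and 15, and of 5 endothelial markers only Tek, at 152 and 131 against 131 and 146.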

How the data were processed

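ATAC-seq was read from a deposited table of regions with values for 4 libraries (2 mdx, 2 wild type), on mm10. Per the submitters' processing notes, the tools included MACS2 2.1.0, STAR 2.5.3a, Trimmomatic 0.33, Picard 2.9.0, DESeq and DESeq2. Their roles, duplicate handling, any Tn5 offset and whether region starts count from 0 or 1 are not stated. A fraction column that the authors deposited, the part of each region inside a gene body, was not used. The values the authors deposited are treated as a score, since they are reads scaled by 1 factor per library and rounded. The factors were 1.382, 1.162, 1.222 and 0.492 for mdx 1, mdx 2, wild type 1 and wild type 2. They were fitted to how often each whole number occurs. Some whole numbers never occur in mdx 1, mdx 2 and wild type 1. In wild type 2, with a factor below 1, 0 whole numbers up to 400 were skipped. Its reads are therefore estimates, since different read numbers round to the same value. For these reasons limma 3.58.1 was used in R 4.3.3, with an intensity trend, on log2(value + 1) and group as the only term. The pseudocount understates changes of low regions. The test was checked on simulated data. The members and the gene lists were chosen with earlier results of these data known. Named regions are those that passed, a list of well-known members, the extremes of each family and genes with 3 or more regions. The gene links are the deposited ones, and RefSeq positions and start windows (GRCm38.p6) gave genes around unlinked regions. Alternatives covered the scaling, the filter, the pseudocount, the variance trend, voom on recovered reads, the promoter window, a replicate block and fits without each library in turn.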

Additional observations from a re-analysis of the deposited data

How the results depend on the processing

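Direction and call of the 54 member regions and the 8 called regions inside genes (62 in all) were kept with a pseudocount of 5, and with a pseudocount of 0.1 in all but 1. With 2 libraries per group, 0 regions were called when any 1 was left out, among members and among all regions, the lone library then being assumed to vary like the other group. Counts of calls moved with most settings. All regions higher in mdx, 1095 as reported, numbered 1821 with promoter medians equal, 1704 with cyclic loess, 404 without the filter and 2 without the intensity trend. All regions lower, 292 as reported, numbered 159 with promoter medians equal, 3465 with distal medians equal, 541 with cyclic loess, 54 without the filter, 725 with a mean of at least 50, 190 and 485 with pseudocounts of 0.1 and 5, 449 with voom and 0 without the trend. The median of all regions moved from -0.01 to 0.19 with promoter medians equal and to -0.35 with distal medians equal. Members called higher numbered 2 with a mean of at least 50 and 0 without the trend. Members called lower numbered 8 with distal medians equal (Adam9, Adam22, Adamts1 at 2.0 kb, Adamts8, Adamts9, Adamts17, Ece2 and Tll1) and 2 with a mean of at least 50 (Adamts9 and Adamts1 at 2.0 kb). The labels do not say that equal replicate numbers share a source, and the deviations of same-numbered libraries correlated at -0.11. With the replicate block 2108 regions were higher and 653 lower, and 3 members were higher, Mme with the Adamts6 region at 2.6 kb before the start and Adamtsl4. The crossed pairing, added after seeing the data, gave 3394 and 2067, with 3 members higher and 5 lower. With equal distal medians the lists gave 2 lower ADAM regulators, 2 lower matrix substrates, 4 lower receptors and inhibitors, and 0 higher and 4 lower shed receptors. Matrix substrates called higher numbered 4 with promoter medians equal and 3 with cyclic loess, and lower receptors and inhibitors 0 and 2. The cause of these moves was not tested. Fold changes near 0 changed sign. With cyclic loess they were Adamts5 start 0.09, Timp3 at -4.1 kb -0.06, Adamts20 0.05, Adamts1 at -1.2 kb 0.05, Adamts14 start -0.08 and Adamts15 start -0.12. With distal medians equal they were Adamtsl1 at 4.3 kb -0.16, Adamts2 -0.13, Adamts5 at -0.6 kb -0.08, Adamts15 -0.29 at the start and -0.17 at 3.0 kb, Mmp11 -0.16, Adamts14 start -0.29, Timp3 at -4.1 kb -0.25 and Adam17 -0.23. With promoter medians equal they were Mmp17 at 2.0 kb 0.07, Mmp2 0.16, Adamtsl1 start 0.14, Adamts9 at 2.0 kb 0.14, Adamts7 0.17, Adam10 0.01, Ece1 0.10, Adamts5 0.19 at the start and 0.17 at 2.6 kb, Adamts3 at 1.0 kb 0.20, Adamts20 0.13, Adamts14 at -4.7 kb 0.18 and Adamts1 at -1.2 kb 0.14. Scaling by totals gave Adamts5 0.04 at the start and 0.02 at 2.6 kb, Adamts7 0.02, Adamts3 at 1.0 kb 0.05, Mmp2 0.01 and Adamts14 at -4.7 kb 0.03. Voom gave Adamts3 at 1.0 kb 0.01, Adamtsl1 start 0.10 and Adamts14 at -4.7 kb 0.02. With 1 library left out the ranges that crossed 0 were Adam10 -0.68 to 0.30, Adam12 -0.05 to 1.02, Adam17 -0.29 to 0.49, Adam2 -0.71 to 0.25, Adamts1 at -1.2 kb -0.24 to 0.12, Adamts14 -0.11 to 0.20 at the start and -0.25 to 0.21 at -4.7 kb, Adamts15 start -0.20 to 0.29, Adamts3 at 1.0 kb -0.10 to 0.10, Adamts5 -0.34 to 0.33 at the start, -0.32 to 0.27 at 2.6 kb and -0.08 to 0.60 at -0.6 kb, Adamts7 -0.27 to 0.21, Adamts9 at 2.0 kb -0.19 to 0.07, Adamtsl1 start -0.55 to 0.45, Ece1 -0.20 to 0.00, Mmp11 -0.09 to 0.44, Mmp15 -1.01 to 0.23, Mmp17 at 2.0 kb -0.33 to 0.08, Mmp2 -0.17 to 0.09, and Timp3 -0.34 to 0.51 at -4.1 kb and -0.78 to 0.03 at 2.5 kb. Depth limits the weak MMP and ADAMTS-like promoters most, since reads of some libraries there are below 10. Member regions at promoters numbered 43 as reported, 39 with a window of 500 bp and 47 with one of 2 kb.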
